A study of Homo sapiens with 16 samples.

Results

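Of the 9554 probe sets in the deposited table, 14 were annotated to 8 matrix and contractile genes and to no other gene. A probe set is a group of short array probes that report on 1 transcript region. The genes were THBS1, COL5A2, COL5A3, POSTN, TGFB2, CALD1, TAGLN and SYNM, out of 5250 genes that had at least 1 probe set to themselves. THBS1 had 3 probe sets, POSTN, TGFB2, CALD1 and TAGLN had 2 each, and COL5A2, COL5A3 and SYNM had 1 each. The genes were chosen by name, with their log2 changes in the comparisons below already known, so those changes are given as descriptions and support nothing.

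The values came from AsPC-1 cells, an established line from a human adenocarcinoma of the pancreas, on 16 Affymetrix arrays. The groups were cells in 10 µM ICG-001 for 24 h (3 arrays), cells in its vehicle DMSO for 24 h (3), cells in 10 µM ICG-001 for 6 h (3), cells in DMSO for 6 h (3), cells 48 h after transfection with 20 nM siRNA against CTNNB1 (2), and cells 48 h after 20 nM control siRNA (2). All were AsPC-1 cells with no other genetic change named, the drug and DMSO cells grew in RPMI medium with fetal calf serum, and both siRNA groups received the same transfection reagent. ICG-001 is a small molecule described as blocking the binding of beta-catenin to the co-activator CREB-binding protein, and CTNNB1 is the gene of beta-catenin.

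Matrix genes encode the proteins that cells secrete and attach to, and contractile genes encode proteins that bind actin or join the filaments inside the cell. In pancreatic tumours much of the matrix is laid down by fibroblasts and stellate cells, but carcinoma cells in culture also transcribe parts of this programme. TGF-beta ligands act through their receptors and SMAD proteins on many of these genes. Contractile genes such as TAGLN and CALD1 are also textbook targets of serum response factor, which binds a sequence called the CArG box. In bulk RNA, fewer cells of a type and less RNA per cell cannot be told apart.

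The 250 bases before the RefSeq transcription start (GRCh38.p14) are shown for the pair with the largest changes under CTNNB1 siRNA (THBS1 and COL5A3), for the ligand TGFB2, and for SYNM, which differed most between ICG-001 and DMSO at 6 h. The windows are THBS1 at chr15:39580829-39581078 on the plus strand, COL5A3 at chr19:10010505-10010754 on the minus strand, TGFB2 at chr1:218345086-218345335 on the plus strand and SYNM at chr15:99104830-99105079 on the plus strand, each written 5′ to 3′ along the gene. Capitals mark matches to any of 6 motifs searched on both strands.
THBS1: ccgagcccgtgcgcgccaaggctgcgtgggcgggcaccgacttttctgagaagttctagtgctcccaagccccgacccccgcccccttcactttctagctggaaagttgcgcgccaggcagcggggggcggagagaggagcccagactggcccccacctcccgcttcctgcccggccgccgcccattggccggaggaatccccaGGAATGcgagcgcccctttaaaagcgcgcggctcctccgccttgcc
COL5A3: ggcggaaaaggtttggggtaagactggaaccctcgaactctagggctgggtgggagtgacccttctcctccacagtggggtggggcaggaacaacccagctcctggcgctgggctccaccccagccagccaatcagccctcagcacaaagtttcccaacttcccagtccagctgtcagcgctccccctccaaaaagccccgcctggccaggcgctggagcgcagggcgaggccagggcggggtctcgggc
TGFB2: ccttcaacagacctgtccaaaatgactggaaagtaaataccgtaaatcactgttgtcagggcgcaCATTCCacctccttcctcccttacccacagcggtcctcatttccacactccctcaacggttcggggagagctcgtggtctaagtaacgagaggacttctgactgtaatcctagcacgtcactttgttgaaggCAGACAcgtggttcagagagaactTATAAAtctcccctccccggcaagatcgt
SYNM: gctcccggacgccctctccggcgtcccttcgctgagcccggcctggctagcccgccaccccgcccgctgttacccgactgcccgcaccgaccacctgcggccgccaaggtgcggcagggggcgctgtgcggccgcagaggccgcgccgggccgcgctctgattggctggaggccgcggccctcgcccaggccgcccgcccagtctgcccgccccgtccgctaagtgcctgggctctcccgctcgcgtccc

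The motifs were the CArG box, TGANTCA (an AP-1-type element, N being any base) and CTTTGAT (bound by TCF/LEF factors). The others were GGAATG (bound by TEAD factors), CAGACA (a SMAD-type element) and TATAAA. THBS1 held GGAATG from base -46 to -41, counted back from the start. TGFB2 held GGAATG on the opposite strand from -185 to -180, CAGACA from -53 to -48 and TATAAA from -29 to -24. No match lay in the COL5A3 or SYNM window. Windows were found for 6 of the 8 genes, and none was found for COL5A2 or TAGLN, so these were not searched. POSTN held TGANTCA at -220, and TATAAA at -29 and, on the opposite strand, at -182. CALD1 had 4 windows, with GGAATG in 2 of them and either TATAAA or TGANTCA (read as TGATTCA) in the others. Among all 35116 promoter windows of this length, 1.16% held the CArG box, 6.57% TGANTCA, 2.26% CTTTGAT, 11.9% GGAATG, 13.6% CAGACA and 10.7% TATAAA. The CArG box and CTTTGAT matched in none of the windows found, which says nothing about TAGLN or COL5A2. A match is a run of letters and not a binding site.

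Deposited values are intensities on a linear scale. Log2 changes below were taken after adding 16 to each intensity and quantile normalization over the 16 arrays. The sign ± gives the standard error (SE) of the limma fit. That fit pooled the spread over all 16 arrays, so the SE of an siRNA change rests mostly on the drug and DMSO arrays. A probe set is called where its Benjamini-Hochberg adjusted p over 6442 single-gene probe sets was under 0.05. By its median, 1 array stood apart before any comparison. ICG-001 24 h replicate 2 had a median intensity of 28.6, against 21.9 and 24.1 for the other 2 arrays of its group and 20.6 to 21.7 for the other drug and DMSO arrays. The siRNA arrays had medians of 12.7 to 13.1, so levels were compared only within the drug experiment or within the siRNA experiment. Mean intensities were 171 to 179 in ICG-001 24 h and 135 to 137 in DMSO 24 h. At 6 h they were 164 to 165 in ICG-001 and 132 to 136 in DMSO. Quantile normalization evens out this gap between treatments, and the deposited scaling keeps it. The scaling also mattered for bright probe sets. In ICG-001 24 h against DMSO 24 h the median change over all probe sets was -0.01 after quantile normalization and 0.09 with the deposited scaling, and among the brightest 644 it was -0.10 and 0.25. At 6 h the brightest 644 stood at -0.16 and 0.14. Deposited-scaling values are therefore given wherever they end a call or move it by more than 1.5 times.

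The pancreatic label was checked on 6 measured ductal carcinoma markers of 14 listed. Here and below, a measured gene is one with a probe set to itself in the deposited table. That table holds only probe sets with a coefficient of variation of at least 0.40, so a listed gene that varied little can be absent. MUC1 ranged from 242 to 1424 over the 16 arrays, KRT7 from 80.3 to 1590, CDH1 from 8.68 to 371, KRT19 from 7.23 to 109.6 and CFTR, which was dim throughout, from 2.27 to 27.9. None of the 6 was at the floor value of 1 on any array, but neither was the leukocyte gene PTPRC (4.07 to 31.7). A value above the floor therefore does not show expression. The lowest CDH1 and KRT19 values lay within the PTPRC range, and all these ranges take in both experiments. The summed intensity of the 6 markers was 3034 to 3162 in ICG-001 24 h and 3191 to 3738 in DMSO 24 h. At 6 h the sum was 4113 to 4179 in ICG-001 and 4103 to 4208 in DMSO. It was 604 to 647 with CTNNB1 siRNA and 486 to 490 with control siRNA, far below the drug and DMSO arrays, whose scale also differed. The markers therefore bear less on the label of the siRNA groups. Of the 6, 1 was called higher and 2 lower in ICG-001 than in DMSO cells at 24 h, 0 higher and 2 lower at 6 h, and 2 higher and 0 lower with CTNNB1 siRNA. KRT7, a ductal keratin, had log2 changes of -1.35 at 24 h, -0.59 at 6 h (deposited scaling -0.21, not called) and 1.06 with CTNNB1 siRNA. TFF1, a secreted trefoil peptide, stood at 0.40 at 24 h (0.65 as deposited) and -0.39 at 6 h (-0.03, not called). MUC1 stood at -0.28 at 24 h (0.13, not called) and CDH1 at 0.42 with CTNNB1 siRNA (0.27, not called). Of 12 fibroblast and stellate cell markers, 6 were measured and none was at the floor. They summed to 400 to 464 in ICG-001 24 h, 362 to 466 in DMSO 24 h, 384 to 458 in ICG-001 6 h, 435 to 447 in DMSO 6 h, 225 to 255 with CTNNB1 siRNA and 197 to 227 with control siRNA. None of the 6 was called in the treatment comparisons with quantile normalization, although ACTA2 was called with CTNNB1 siRNA at the deposited scaling (0.46, against 0.35 after quantile normalization). Summed levels of smooth muscle markers (2 measured of 7) did not pass 36.9, of endothelial markers (3 of 7) 67.4 and of leukocyte markers (2 of 8) 38.9 on any array, with the endothelial PECAM1 and the B cell gene CD79A each at the floor on 1 array. Any part of these other cell types in the changes below was not tested.

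In ICG-001 against DMSO at 24 h, 4 of the 14 probe sets were called, 1 higher and 3 lower, where 9.67% of all single-gene probe sets were called higher and 10.4% lower. At the deposited scaling 3 were called higher and 2 lower, where 14.6% were called higher and 6.95% lower. At 6 h, 0 were called higher and 6 lower, beside 5.99% and 7.54% of all. The deposited scaling called 0 higher and 4 lower at 6 h, beside 7.95% and 4.47%. With CTNNB1 siRNA, 7 were called higher and 0 lower, beside 5.95% and 5.79% of all. The deposited scaling called 8 higher and 0 lower, beside 4.94% and 3.87%. The median log2 change over the 14 was 0.03 at 24 h, -0.33 at 6 h and 0.46 with CTNNB1 siRNA, beside -0.01, -0.01 and 0.00 over all single-gene probe sets. Intensities of the groups did not overlap for 8 of the 14 at 24 h, 4 higher and 4 lower, where 21.3% of all probe sets stood wholly higher and 11.3% wholly lower. At 6 h 7 stood wholly lower and 0 higher, with backgrounds of 11.1% and 15.1%. With CTNNB1 siRNA 9 stood wholly higher and 0 lower, with backgrounds of 23.4% and 20.6%. The siRNA groups share no arrays with the drug groups, and the difference between a drug change and the siRNA change was not tested.

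**Figure D1:**
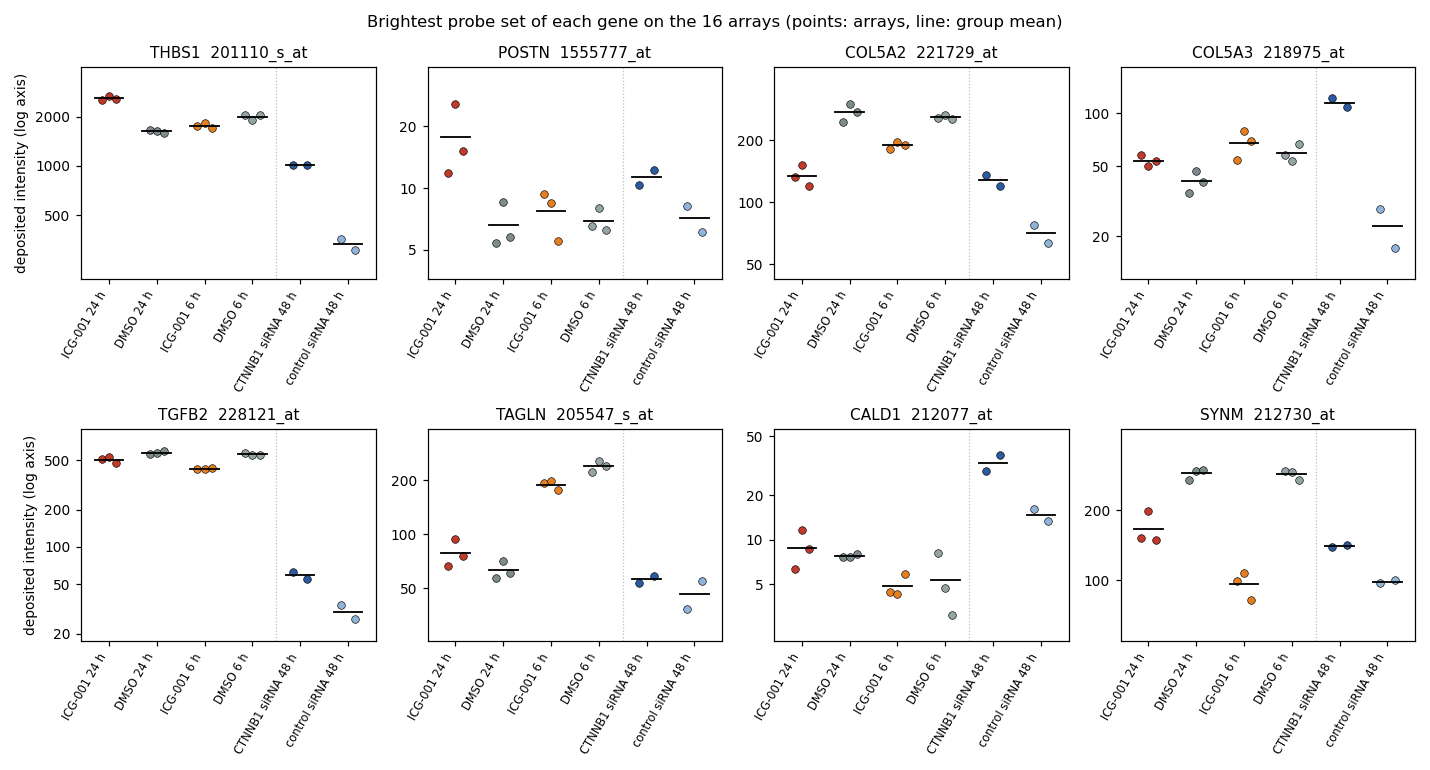
Deposited intensity (log axis) of each gene's brightest probe set on the 16 arrays. Points are arrays, lines are group means, and the dotted line parts the drug from the siRNA experiment. Within the drug experiment SYNM lies lowest in ICG-001 6 h (82.7 to 108) and TAGLN is higher in both 6 h groups than in both 24 h groups.

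**Figure D2:**
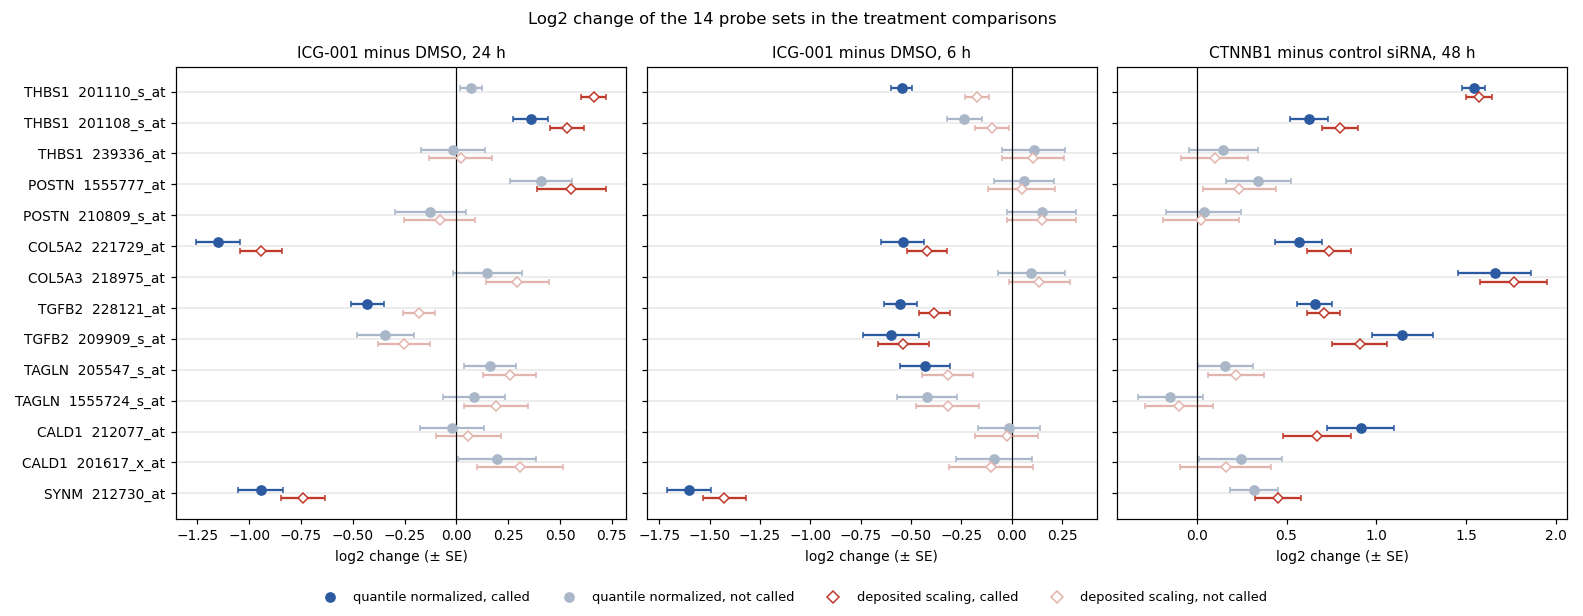
Log2 change of the 14 probe sets with its SE in the treatment comparisons, on x axes with separate ranges. Filled circles are after quantile normalization and open diamonds at the deposited scaling, in pale colours where not called. The first THBS1 row shows the gap between scalings, 0.07 and 0.66 at 24 h.

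THBS1 encodes thrombospondin 1, a secreted glycoprotein that binds cells and matrix and can activate latent TGF-beta. With CTNNB1 siRNA, 201110_s_at, its brightest probe set, read 1016 and 1005, against 355 and 305 with control siRNA. The groups lay far apart, a 3.06-fold ratio of means and a log2 change of 1.54 ± 0.06 (n = 2 each). A further probe set, 201108_s_at, read 108 and 112 with CTNNB1 siRNA, against 59.2 and 53.8 with control siRNA, a change of 0.62 ± 0.11 that was also called. The third, 239336_at, read 17.1 and 20.4 with CTNNB1 siRNA, against 15.3 and 17.5 with control siRNA, and was not called. The log2 values of 201110_s_at and 201108_s_at correlated at r = 0.92 over the 16 arrays, which takes in the gap between the experiments, and at 0.42 over the 12 drug arrays, a subset chosen after seeing the data. Those of 239336_at correlated with the other 2 at -0.78 and -0.89 over the 16 arrays, and at -0.22 and -0.04 over the 12.

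In the drug experiment the 201110_s_at intensities of ICG-001 cells stood above DMSO at 24 h and below it at 6 h. At 24 h, 201110_s_at read 2539, 2669 and 2557 in ICG-001 cells, against 1657, 1643 and 1588 in DMSO cells, a ratio of means of 1.59. All ICG-001 arrays were higher, yet the log2 change was 0.07 ± 0.05 and not called after quantile normalization, and 0.66 and called at the deposited scaling. The second probe set read 440, 446 and 382 in ICG-001 24 h cells, against 288, 287 and 285 in DMSO 24 h cells. It was called under both scalings, at 0.36 ± 0.09 and 0.53, and also without ICG-001 24 h replicate 2 (0.33). At 6 h, 201110_s_at read 1759, 1815 and 1708 in ICG-001 cells, against 2031, 1895 and 2038 in DMSO cells. All ICG-001 arrays were lower, with a change of -0.55 ± 0.05 that was called after quantile normalization and -0.17, not called, at the deposited scaling. The second probe set read 361, 362 and 334 in ICG-001 6 h cells, against 341, 395 and 400 in DMSO 6 h cells, where the groups overlapped. The third, 239336_at, was dim, at 5.78, 3.29 and 3.62 in ICG-001 24 h cells, against 3.43, 5.42 and 3.01 in DMSO 24 h cells, and at 3.45, 10.2 and 2.17 in ICG-001 6 h cells, against 3.83, 3.65 and 3.14 in DMSO 6 h cells. Its groups overlapped at both times. The order of the 201110_s_at levels rests on the scaling. By mean deposited intensity it was ICG-001 24 h, DMSO 6 h, ICG-001 6 h and DMSO 24 h. After quantile normalization it was DMSO 6 h (log2 level 11.06 to 11.16), ICG-001 24 h (10.94 to 10.96), DMSO 24 h (10.82 to 10.91) and ICG-001 6 h (10.54 to 10.62). No neighbouring groups overlapped in either order.

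POSTN encodes periostin, a matrix protein made mostly by fibroblasts. Its probe sets were dim. On 1555777_at ICG-001 24 h cells read 11.9, 25.8 and 15.2, against 5.42, 8.57 and 5.80 in DMSO 24 h cells. The groups did not overlap, and the highest value was that of replicate 2, the array that stood apart. The change was 0.41 ± 0.15, not called, and 0.32 without that array, whereas the deposited scaling called it at 0.56. Adding 1 in place of 16 before log2 gave 1.00 and adding 64 gave 0.14, so its size rests on that number. At 6 h it read 9.38, 8.42 and 5.51 in ICG-001 cells, against 6.52, 7.97 and 6.28 in DMSO cells. The siRNA values were 10.3 and 12.2 with CTNNB1 siRNA, against 8.16 and 6.10 with control siRNA, and were not called. The other probe set, 210809_s_at, stayed between 2.02 and 12.02 on all arrays, was called in none of the treatment comparisons, and correlated with the first at r = 0.21 over the 16 arrays and -0.26 over the 12 drug arrays.

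COL5A2 and COL5A3 encode chains of type V collagen, which assembles with type I collagen and sets the width of its fibrils. COL5A2 (221729_at) read 132, 152 and 119 in ICG-001 24 h cells, against 245, 300 and 275 in DMSO 24 h cells. It fell to a ratio of means of 0.492, a log2 change of -1.15 ± 0.11 that was called under both scalings (-0.94) and stood at -1.23 without ICG-001 24 h replicate 2. At 6 h it read 181, 195 and 190 in ICG-001 cells, against 256, 264 and 253 in DMSO cells, a called change of -0.54 ± 0.11. All ICG-001 arrays at each time were below all DMSO arrays. With CTNNB1 siRNA it read 136 and 120, against 77.4 and 63.6 with control siRNA, on the other side of its control. The change was 0.57 ± 0.13 and called, but not without control siRNA replicate 2 (0.49) or without CTNNB1 siRNA replicate 1 (0.49).

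COL5A3 (218975_at) was among the members with the widest gap in the siRNA experiment. It read 122 and 108 with CTNNB1 siRNA, against 28.6 and 17.1 with control siRNA, a 5.02-fold ratio of means. The log2 change was 1.66 ± 0.20, with 1.09 when 64 was added before log2 and a call in both cases. In ICG-001 24 h cells it read 57.6, 50.1 and 53.3, against 35.4, 46.9 and 40.7 in DMSO 24 h cells. Although no arrays overlapped, the change of 0.15 ± 0.17 was not called. At 6 h ICG-001 cells read 53.9, 79.5 and 69.4, against 57.8, 53.8 and 67.2 in DMSO cells, and the groups overlapped.

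TGFB2 encodes a TGF-beta ligand. With CTNNB1 siRNA, 228121_at read 62.8 and 55.1, against 33.8 and 26.2 with control siRNA, and 209909_s_at read 45.2 and 39.7, against 16.9 and 13.5. Ratios of means were 1.96 and 2.80, and both log2 changes, 0.66 ± 0.10 and 1.14 ± 0.17, were called. The first was not called when only the 4 siRNA arrays were fitted. The drug gave the opposite sign. In ICG-001 24 h cells 228121_at read 516, 528 and 477, against 562, 574 and 593 in DMSO 24 h cells, wholly lower. Its change of -0.43 ± 0.08 was called after quantile normalization and not at the deposited scaling (-0.18), and was -0.45 without ICG-001 24 h replicate 2. At 6 h ICG-001 cells read 428, 422 and 431, against 575, 556 and 555 in DMSO cells, a change of -0.55 ± 0.08 called under both scalings. The second probe set read 78.8, 63.3 and 72.5 in ICG-001 24 h cells, against 80.8, 92.0 and 91.3 in DMSO 24 h cells, and was not called (-0.34 ± 0.14). At 6 h it read 74.9, 65.6 and 58.7 in ICG-001 cells, against 100.1, 112 and 98.1 in DMSO cells, and was called at -0.60 ± 0.14.

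TAGLN encodes transgelin, a protein that bundles actin. Its widest differences lay between culture times. In DMSO, 205547_s_at read 57.1, 71.2 and 60.4 at 24 h, against 223, 256 and 240 at 6 h, a ratio of means of 0.262 and a log2 change of -1.86 ± 0.12. In ICG-001 it read 66.2, 94.1 and 75.8 at 24 h, against 193, 198 and 176 at 6 h, a ratio of 0.416 and a change of -1.27 ± 0.12. The other probe set, 1555724_s_at, followed it over the arrays (r = 0.97 over the 16 and 0.98 over the 12 drug arrays), with changes of -1.62 ± 0.15 in DMSO and -1.12 ± 0.15 in ICG-001. All 4 changes were called under both scalings.

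Between drug and vehicle TAGLN differed less. At 24 h the 205547_s_at values of ICG-001 and DMSO cells overlapped, with a change of 0.16 ± 0.12. The sign of 1555724_s_at, 0.09 at 24 h, turned to -0.12 without ICG-001 24 h replicate 2, and neither value was called. At 6 h all ICG-001 arrays lay below all DMSO arrays on both probe sets, with 134, 138 and 160 in ICG-001 cells, against 180.2, 186 and 183 in DMSO cells, on 1555724_s_at. Its change of -0.42 ± 0.15 was not called, nor was the -0.32 at the deposited scaling. The change of 205547_s_at at 6 h, -0.43 ± 0.12, was called after quantile normalization but not at the deposited scaling (-0.32), after median centring (-0.33) or with 1 added before log2 (-0.46), and also not without ICG-001 6 h replicate 1 (-0.44), ICG-001 6 h replicate 3 (-0.39), DMSO 6 h replicate 2 (-0.37) or DMSO 6 h replicate 3 (-0.43). With CTNNB1 siRNA it read 53.5 and 58.5, against 38.1 and 54.6 with control siRNA. These overlapped and were not called.

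CALD1 encodes caldesmon, which binds actin and myosin. On 212077_at CTNNB1 siRNA cells read 29.0 and 37.2, against 16.1 and 13.4 in control siRNA cells, 2.24-fold by means and a called change of 0.91 ± 0.19. The call was lost with 1 added before log2 (1.29) and with only the siRNA arrays fitted (0.91), and adding 64 gave 0.49. In the drug experiment it stayed between 3.12 and 11.6 on all 12 arrays, and all neighbouring groups overlapped. The other CALD1 probe set, 201617_x_at, ranged from 3.03 to 22.2, its highest value being again that of ICG-001 24 h replicate 2, and was called in none of the treatment comparisons. Its name ends in _x_at, the suffix of probe sets that can bind other transcripts too.

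SYNM encodes synemin, which ties intermediate filaments to sites of attachment. At 24 h it (212730_at) read 152, 199 and 149 in ICG-001 cells, against 270, 295 and 296 in DMSO cells, a ratio of means of 0.581 and a change of -0.94 ± 0.11. At 6 h it read 99.0, 108 and 82.7 in ICG-001 cells, against 295, 290 and 270 in DMSO cells, a ratio of 0.338 and a change of -1.60 ± 0.11. Both changes were called under both scalings, with -0.74 at 24 h and -1.43 at 6 h as deposited, and the 24 h value was -1.06 without ICG-001 24 h replicate 2. Its DMSO arrays at 24 h and at 6 h overlapped. With CTNNB1 siRNA it read 139 and 142, against 97.3 and 100.2 with control siRNA. No arrays overlapped, but the change of 0.32 ± 0.13 was called only at the deposited scaling (0.45).

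Between 24 h and 6 h in ICG-001, 2 of the 14 probe sets were called higher and 3 lower, beside 8.37% and 8.35% of all single-gene probe sets. The deposited scaling called 5 higher and 3 lower, beside 11.8% and 6.86%. In DMSO 0 were called higher and 4 lower under both scalings, beside 4.63% and 3.77% of all (5.09% and 3.09% at the deposited scaling). Both comparisons draw on the same groups as the drug comparisons. Beside TAGLN, the called values in ICG-001 were THBS1 201110_s_at (0.37 ± 0.05), SYNM (0.64 ± 0.11) and COL5A2 (-0.57 ± 0.11). In DMSO they were THBS1 201110_s_at (-0.24 ± 0.05) and THBS1 201108_s_at (-0.47 ± 0.09). The first of these was not called when the prior spread was fitted with no intensity trend. In DMSO the COL5A2, TGFB2 228121_at and SYNM changes with time lay between -0.02 and 0.04. The drug change itself was algebraically higher at 24 h than at 6 h for 4 probe sets and lower for 1 by the interaction term of the fit, beside 3.77% and 3.82% of all. These were THBS1 201110_s_at (0.62), THBS1 201108_s_at (0.59), SYNM (0.66) and TAGLN 205547_s_at (0.59), against COL5A2 (-0.61). The other TAGLN probe set, 1555724_s_at, was not called for this term (0.50). The TAGLN 205547_s_at call was lost at the deposited scaling (0.58), after median centring (0.46) and in other alternatives given below. The COL5A2 call was lost without ICG-001 24 h replicate 3 (-0.51).

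**Figure D3:**
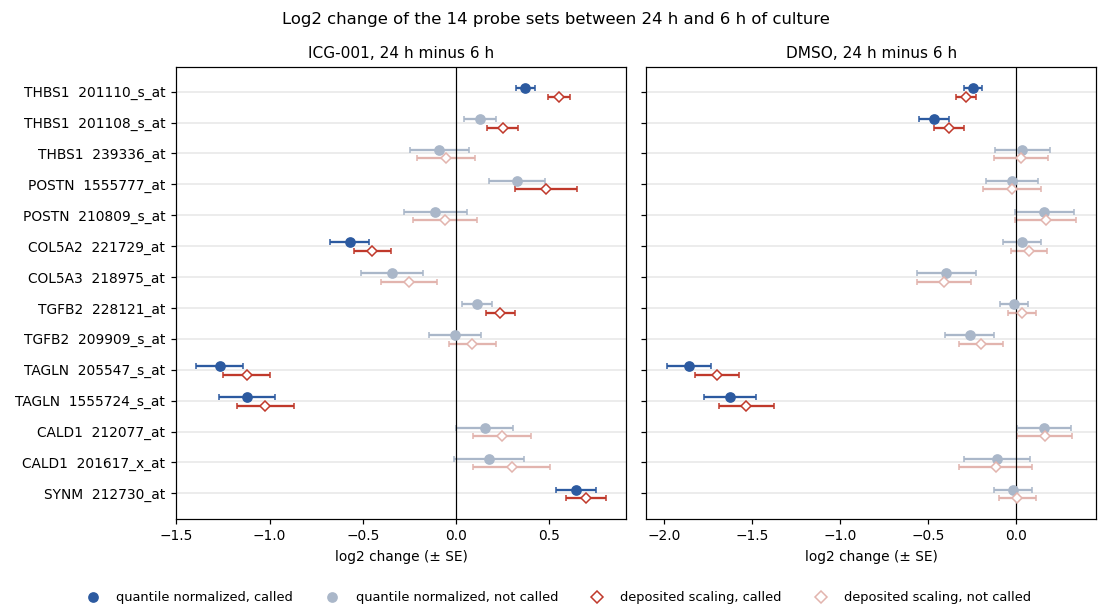
Log2 change of the 14 probe sets between 24 h and 6 h of culture with its SE, in ICG-001 (left) and DMSO (right), with separate x ranges. Filled circles are after quantile normalization and open diamonds at the deposited scaling, pale where not called. Both TAGLN probe sets lie below -1 in both panels.

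Genes related to the members were taken from lists of matrix, contractile and TGF-beta pathway genes, without the members themselves and with 1 probe set per gene. Among 5250 genes 9.2% were called higher and 11.3% lower at 24 h, 5.58% and 8.23% at 6 h, and 6.15% and 5.89% with CTNNB1 siRNA. Of 13 measured collagens, 2 were higher and 1 lower in ICG-001 at 24 h, 1 was lower at 6 h, and 2 were higher and 1 lower with CTNNB1 siRNA. COL7A1, the collagen of anchoring fibrils, averaged 226 ± 17.2 in ICG-001 24 h cells and 104 ± 16.9 in DMSO 24 h cells (SD, n = 3 each), a log2 change of 0.97 ± 0.15. COL13A1, a transmembrane collagen, was at 0.21 at 24 h (0.60 as deposited), at -0.38 at 6 h (-0.04, not called) and at -0.73 with CTNNB1 siRNA. COL6A1, a chain of type VI collagen, was at -0.46 at 24 h (-0.31, not called) and at 0.52 with CTNNB1 siRNA. COL4A3, of basement membranes, was at 1.13 ± 0.32 with CTNNB1 siRNA (0.81, not called). It averaged 31.85 ± 2.19 with CTNNB1 siRNA and 12.26 ± 10.7 with control siRNA (SD, n = 2 each). The control arrays were thus dim and far apart. The collagen medians were 0.06 at 24 h, -0.05 at 6 h and -0.03 with CTNNB1 siRNA.

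Among 15 other matrix glycoproteins and proteoglycans, 1 was called in each drug comparison and 2 with CTNNB1 siRNA. LAMB3, the beta chain of laminin 332, averaged 6170 ± 178 in ICG-001 24 h cells and 1788 ± 122 in DMSO 24 h cells (SD, n = 3 each). Its log2 change was 1.18 ± 0.09 (1.78 as deposited) at 24 h, 0.40 ± 0.09 (1.04) at 6 h and 1.23 ± 0.11 with CTNNB1 siRNA. MFAP5, a microfibril protein, was at -0.85 with CTNNB1 siRNA, where it averaged 4.29 ± 0.28, against 14.8 ± 1.85 with control siRNA (SD, n = 2 each), both dim. FN1, fibronectin, was called in none of the treatment comparisons. Of 8 matrix processing genes, 2 were higher in ICG-001 at 24 h, 1 was higher and 1 lower at 6 h, and 2 were higher with CTNNB1 siRNA. MMP14, a membrane-bound matrix protease, averaged 386 ± 18.1 in ICG-001 24 h cells and 158 ± 15.7 in DMSO 24 h cells (SD, n = 3 each), a change of 1.12 ± 0.11, and was at 0.44 at 6 h and 0.53 with CTNNB1 siRNA. P4HA2, a collagen prolyl hydroxylase subunit, was at 0.24 at 24 h (0.81 as deposited), at -0.50 at 6 h (-0.05, not called) and at 0.43 with CTNNB1 siRNA.

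Of 12 matrix receptors, 3 were called lower at 24 h, 3 lower at 6 h, and 3 higher and 1 lower with CTNNB1 siRNA. At the deposited scaling, 3 were higher and 2 lower at 24 h and none was called at 6 h. ITGB8, an integrin subunit that binds latent TGF-beta with its alpha v partner, averaged 98.9 ± 19.7 in ICG-001 24 h cells and 192 ± 9.10 in DMSO 24 h cells (SD, n = 3 each), a change of -1.04 ± 0.13. At 6 h it was at -0.46 (-0.35 as deposited, not called). SDC3, a syndecan, was at -0.64 at 24 h, -0.43 at 6 h (-0.32, not called) and 0.59 with CTNNB1 siRNA. ITGB3, an integrin subunit, was at -0.50 at 24 h (-0.37, not called). CD44, the hyaluronan receptor, was at -0.41 at 6 h (0.10 as deposited, not called) and at 0.62 with CTNNB1 siRNA. CD47, a receptor of thrombospondin 1, was at -0.71 with CTNNB1 siRNA, and ITGA5, of the fibronectin receptor, at 0.48.

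Of 19 actin cytoskeleton and contractile genes, 2 were called higher and 3 lower in ICG-001 at 24 h, 3 higher and 2 lower at 6 h, and 3 higher with CTNNB1 siRNA. TGFB1I1, a focal adhesion adaptor, averaged 1472 ± 12.5 in ICG-001 24 h cells and 656 ± 71.6 in DMSO 24 h cells (SD, n = 3 each), and was at 0.82 ± 0.08 at 24 h, 0.43 at 6 h (0.72 as deposited) and 0.42 with CTNNB1 siRNA. PDLIM7, an actin-associated adaptor, was at 0.74 at 24 h and 0.66 at 6 h. TPM2, a tropomyosin, was at -0.61 at 24 h (-0.34 as deposited) and -0.55 at 6 h (-0.25). CNN3, a calponin, was at -0.47 at 24 h, and at 1.23 ± 0.15 with CTNNB1 siRNA, where it averaged 142 ± 12.6, against 39.4 ± 2.01 with control siRNA (SD, n = 2 each). CDC42EP3, an effector of CDC42, was at 0.30 at 6 h (0.60 as deposited), and TLN1, talin, at 0.59 with CTNNB1 siRNA. SRF, MYOCD and ACTA2 were called in none of the treatment comparisons after quantile normalization.

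None of the 10 measured TGF-beta pathway genes, the 3 intermediate filament genes (VIM among them) or the 6 epithelial-mesenchymal transition genes was called in a treatment comparison. The pathway median was -0.06 at 24 h, 0.04 at 6 h and -0.11 with CTNNB1 siRNA, beside -0.02, -0.02 and 0.01 over all genes. CTNNB1 and SMAD7 were not analysed here, so the depletion of the siRNA target was not checked. CREBBP, the gene of CREB-binding protein, had 1 dim probe set. It averaged 5.90 ± 3.38 in ICG-001 24 h cells and 7.48 ± 2.62 in DMSO 24 h cells, and 3.40 ± 1.52 in ICG-001 6 h cells and 14.7 ± 6.75 in DMSO 6 h cells (SD, n = 3 each). It was called lower at 6 h (-0.61) and with CTNNB1 siRNA (-0.76), the second not at the deposited scaling (-0.55).

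**Figure D4:**
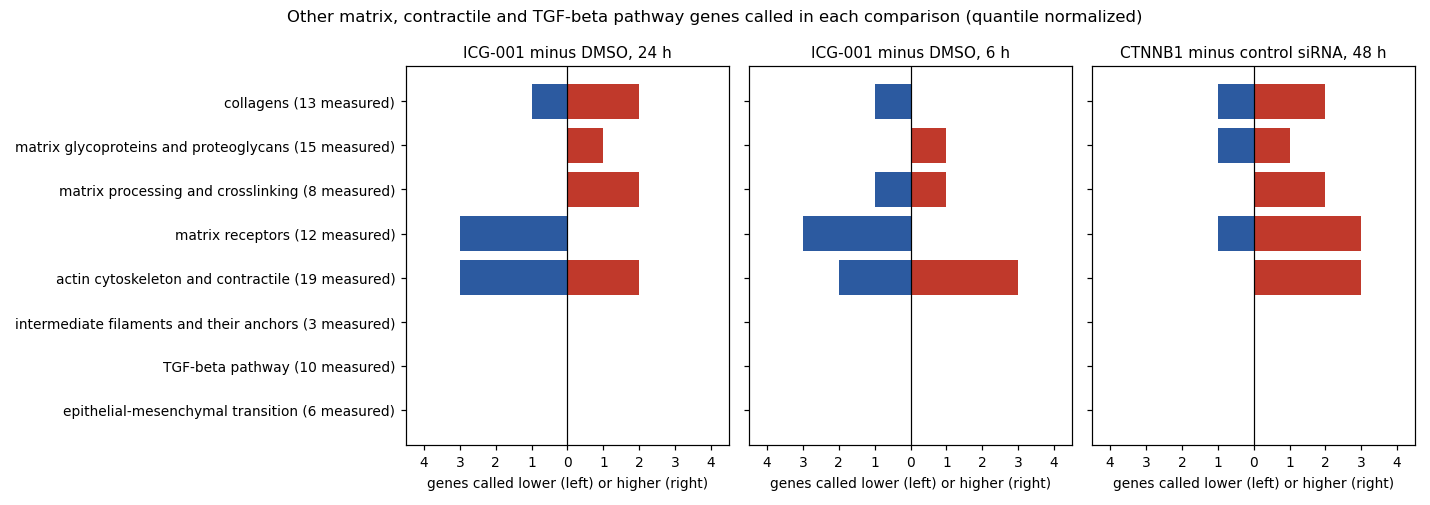
Number of genes called lower (bars to the left) or higher (bars to the right) in each list for the treatment comparisons, after quantile normalization. The axis counts genes, and the measured number stands beside each list. Matrix receptors show 3 lower genes at both drug times, and the last 3 lists show none.

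The genes whose log2 values ran most like a member over the 16 arrays were found by Pearson correlation, which here also takes in the gap between the drug and siRNA experiments. They were SLC7A2 and MMP19 for THBS1 (both r = 0.96), LBH and MYBL1 for COL5A2 (0.91 and 0.90), ADGRF4 and HMOX1 for COL5A3 (0.89 and 0.87), and DGCR2 and TSPAN1 for TGFB2 (both 0.99). For TAGLN they were PBX4 and OLFML2A (0.86 and 0.84), for CALD1 NECTIN2 and LHX8 (both 0.97), for SYNM KANK1 and SKP2 (both 0.89), and for POSTN FUT8-AS1 and LOC101929762 (0.92 and 0.91). Over the 12 drug arrays alone, a choice made after seeing the data, TAGLN ran most like S100A2 and TFF1 (both 0.99). SYNM ran like PLEKHA7 (0.99) and DFFB (0.98), COL5A2 like LRRIQ3 and RPAIN (both 0.98), and TGFB2 again like DGCR2 (0.99). THBS1 ran like LHX2 (0.94) and P4HA2 (0.88), and COL5A3 like ELL2 (0.88) and ELOVL5 (0.87). For CALD1 they were MALAT1 (0.87) and SYTL4 (0.84), and for POSTN LOC105378997 (0.95) and SCN8A (0.92). Except for DGCR2, these differ from the genes named over the 16 arrays.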

How the data were processed

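The 16 Affymetrix arrays measured RNA of AsPC-1 cells in 4 groups of 3 and 2 groups of 2 that the labels call biological replicates. The deposited values are intensity values, 1 per probe set and array. How probes were summarised and scaled is not given in any source used here. The table held 9554 probe sets with a coefficient of variation of at least 0.40, so it is a selection by variation, and 1682 values were exactly 1. The platform annotation gave 1 gene to 6442 probe sets, several to 252 and none to 2860. Symbols of 6432 were matched to current ones.

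After 16 was added, log2 values were quantile normalized and fitted with limma 3.58.1 in R 4.3.3, with 1 mean per group, an intensity trend and 10 residual degrees of freedom. P-values were adjusted over 6442 probe sets by the Benjamini-Hochberg method. The fit was tested on simulated data. Members and lists were chosen with earlier results of these data known. The text names every member probe set, the 2 genes most like each member, and up to 4 called genes with the largest change per list and comparison. Arrays of the same replicate number did not deviate together (r between -0.058 and 0.085). No 2 arrays were identical. The number of arrays limits the precision. Alternatives changed the scaling, the number added, the probe sets and arrays fitted, the spread model, a replicate block and each array in turn.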

Additional observations from a re-analysis of the deposited data

Results flagged for a closer look

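The change of ICG-001 against DMSO differed between 24 h and 6 h for 5 of the 14 probe sets, by the interaction term of the limma fit (Benjamini-Hochberg adjusted p under 0.05), 4 in the positive and 1 in the negative direction, beside 3.77% and 3.82% of all single-gene probe sets. As the members were chosen with these comparisons known, the values are descriptions. For THBS1 the 24 h change minus the 6 h change was 0.62 ± 0.07 (SE) on the log2 scale for 201110_s_at and 0.59 ± 0.12 for 201108_s_at, with drug changes of 0.07 and 0.36 at 24 h, against -0.55 and -0.24 at 6 h. For SYNM it was 0.66 ± 0.15, with -0.94 at 24 h against -1.60 at 6 h. For COL5A2 it was -0.61 ± 0.15, with -1.15 at 24 h against -0.54 at 6 h, and it was not called without ICG-001 24 h replicate 3 (-0.51). For TAGLN 205547_s_at it was 0.59 ± 0.18, with 0.16 at 24 h against -0.43 at 6 h. The TAGLN value was not called at the deposited scaling (0.58), nor without ICG-001 24 h replicate 2 (0.49), the array with the highest median, or replicate 3 (0.61). It was also not called without ICG-001 6 h replicate 1 (0.60), 2 (0.62) or 3 (0.55). Nor was it called without DMSO 24 h replicate 1 (0.54) or 3 (0.58), or DMSO 6 h replicate 2 (0.53) or 3 (0.59). The call was also lost with quantile normalization within each experiment (0.57), after median centring (0.46) and with 1 added before log2 (0.67). Fitting all probe sets or leaving out the intensity trend ended it too (both 0.59). The other TAGLN probe set, 1555724_s_at, was not called (0.50 ± 0.21).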

How the results depend on the processing

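Over 1436 member log2 values recomputed under the alternatives, 1325 moved by less than 1 SD of the replicates, 111 moved by more, and no called value changed sign. The 1325 include alternatives that could not move a log2 value, because they kept the same normalized values and differences of group means. These changed the probe sets fitted, fitted the arrays of 1 experiment only, changed the spread model or added the replicate block. Calls were lost in at least 1 alternative for 2 of 6 member probe sets at 6 h, 1 of 4 at 24 h, 3 of 7 with CTNNB1 siRNA, 1 of 4 between times in DMSO, none of 5 between times in ICG-001 and 2 of 5 for the difference of the drug changes. With CTNNB1 siRNA 756 probe sets were called over the table, 499 after median centring and 352 with only the siRNA arrays fitted, which have fewer degrees of freedom. The median centring cause was not tested. Member probe sets called between times in ICG-001 numbered 8 at the deposited scaling, against 5, the cause of which was not tested. In DMSO they numbered 2 with 1 probe set per gene, against 4, as only 8 remained. The share of calls that were higher was 64% at the deposited scaling and 64.1% after median centring, against 44.3%, for ICG-001 at 6 h. At the deposited scaling it was 67.7% at 24 h, against 48.1%, and 63.2% between times in ICG-001, against 50%. Median centring gave 51.9% at 24 h and 45.9% between times in ICG-001. For the difference of the drug changes the share was 39.7% after median centring, against 49.7%. Without each array in turn, calls ranged from 746 to 799 at 6 h, 1130 to 1235 at 24 h, 574 to 802 with CTNNB1 siRNA, 436 to 484 between times in DMSO, 925 to 1020 in ICG-001 and 407 to 478 for the difference, and member calls from 5 to 7 at 6 h, 6 to 7 with CTNNB1 siRNA, 4 at 24 h and in DMSO and 5 in ICG-001. The lone array left in an siRNA group was then assumed to vary like the other groups. With the replicate number as a block, calls were 877 at 6 h, 1319 at 24 h, 782 with CTNNB1 siRNA, 552 between times in DMSO, 1124 in ICG-001 and 500 for the difference, and members called stayed at 6, 4, 7, 4 and 5 in number. The pairing of arrays by number had no support in their deviations. POSTN, CALD1 and THBS1 239336_at lay near the 16 added, where sizes depend on it.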
